A study of Mus musculus with 13 samples.

Results

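Potassium channel genes were followed in hearts of adult mice 5 weeks after ischemia and reperfusion (IR) or a sham operation. All gene symbols that begin with Kcn were taken, and a symbol was kept when it had at least 10 reads in at least 3 of the 13 libraries. Of 53278 symbols in the count table, 99 begin with Kcn and 50 passed. The set holds 48 protein-coding genes, which encode pore-forming subunits, their accessory subunits or related proteins, and 2 antisense transcripts, Kcnq1ot1 and Kcnd3os. All the animals were wild-type C57Bl6 males of 17 weeks whose procedure took place at 12 weeks, and RNA came from the whole heart, atria and ventricles not being told apart in the labels. There were 4 groups. IR edit hearts (n = 4) had IR and an injection of a functional editing system directed at CaMKIIδ, the main heart form of a calcium-dependent kinase. IR virus hearts (n = 3) had IR and a control virus. IR hearts (n = 3) had IR and no injection, and Sham hearts (n = 3) had the sham operation and no injection. The virus type, its dose and the promoter that drives the editor are not given in the labels, and no group had sham surgery with an injection, so virus and IR cannot be separated in the comparison of IR virus with Sham hearts.

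Potassium channels set the resting potential of heart muscle cells and end each action potential by letting potassium leave the cell. In the mouse ventricle the early, rapid repolarization is carried by the transient outward current through Kv4 pores with their partner KChIP2, the Kcnip2 product, and the later phase by delayed rectifiers, Kcna5 among their pores. Inward rectifiers hold the resting potential (Kcnj2, Kcnj12), slow the atria in response to acetylcholine (Kcnj3 with Kcnj5), or open when ATP runs low (Kcnj11 and Kcnj8 with the sulfonylurea receptors Abcc8 and Abcc9). In failing and injured hearts of several species, loss of transient outward subunits is a well-known part of electrical remodeling.

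The libraries held 20634820 to 27265276 assigned counts each, of which 29.7% to 38.5% were mitochondrial. On the first principal component of log2 CPM over all genes tested, which held 27.5% of the variance, IR edit replicates 2 and 4 lay apart at −34.0 and −45.1. IR edit replicates 1 and 3 scored −10.2 and 2.80. The range of the remaining 9 hearts was −3.83 to 26.5. Results for IR edit hearts are therefore given with and without replicates 2 and 4. On the second component, with 15.5% of the variance, IR edit replicate 3 scored highest at 30.1, and Sham replicate 3 came next at 15.2. Fits without IR edit replicate 3 are among those that leave out 1 library. Camk2d, the gene of the editing target, had 223 ± 17.9 CPM in IR edit hearts (SD, n = 4), against 217 ± 18.4 in IR virus, 241 ± 5.42 in IR and 251 ± 45.1 in Sham hearts (SD, n = 3 each). Its difference between IR edit and IR virus hearts did not pass the test (log2 fold change 0.04 ± 0.11 (SE), adjusted p = 0.896, edgeR). The amount of this transcript does not show whether its sequence was edited. Heart muscle cell markers were abundant in every library, with 7 genes summing to 34568 to 44145 CPM in IR edit hearts and to 37838 to 47257 CPM in the other 9. Markers of skeletal muscle summed to at most 2.15 CPM. In whole-heart RNA, fewer cells of a type and less RNA per cell cannot be told apart. The labels do not say whether the numbered samples of a group are separate animals in every case, so p-values measure the spread between these samples.

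Levels between genes were compared as RPKM, here CPM divided by the length of a gene's exons in kilobases, averaged over the 13 hearts. The highest member was Kcnk3, a tandem-pore background channel that is closed by acid, at 37.9 RPKM, with a range of 32.0 to 41.8 over the hearts. Kcnip2 followed at 29.6 RPKM, with a range of 14.5 to 38.1, then Kcnj11, the pore of the ATP-sensitive channel of heart muscle cells, at 24.1, and Kcnj3 and Kcnj5, the pair that forms the acetylcholine-gated channel, at 21.8 and 20.7. The ranges of these neighbours overlap. Kcnj2, the main inward rectifier of the ventricle, and Kcng2, a silent Kv subunit, both averaged 15.7 RPKM. Kcnj8, the ATP-sensitive pore of vascular cells, had 9.28 RPKM, and Kcnh2, the pore of the rapid delayed rectifier, 7.55. Kcnj12, a further resting-potential rectifier, had 6.47 RPKM, and Kcnd2, a Kv4 pore of the mouse ventricle, 6.15. The 12 highest members held 86.2% of the summed RPKM of all 50 members. Using the longest transcript in place of the joined exons left 11 of the 12 among the 12 highest. Of all members, 22 averaged above 1 RPKM, and the lowest averaged 0.0328 RPKM.

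**Figure D1:**
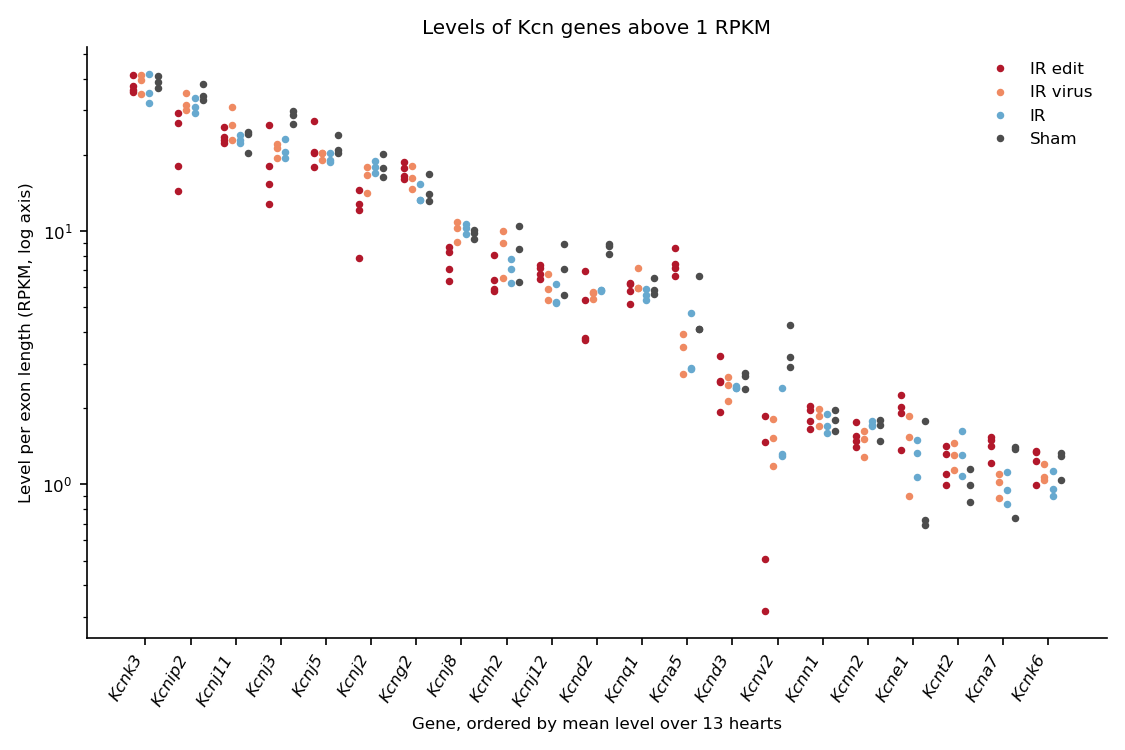
Level in RPKM (CPM per kilobase of exon, log axis) of 21 of the 22 Kcn genes that averaged above 1 RPKM, ordered by their mean over the 13 hearts; each point is 1 heart, coloured by group, with IR edit, IR virus, IR and Sham from left to right at each gene. Kcnk3 leads with a mean of 37.9 RPKM, and for Kcnd2 and Kcnv2 the Sham points lie above all others.

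Membership was not set by any group. No member reached 10 reads in hearts of 1 group only, and 37 of the 50 had at least 10 reads in all 13 libraries. Just inside the limit were Kcnq5 with 3 to 23 reads per library (10 or more in 5 libraries), and Kcnc1 with 2 to 18 and Kcnip1 with 3 to 17 (6 libraries each). Just outside were Kcne1l, Kcne3 and Kcnn4, whose highest libraries had 22, 12 and 13 reads and which reached 10 in 2 libraries. The other 46 symbols outside the set reached 10 reads in 1 library (4 symbols) or in none (42). All 50 members and no other Kcn symbol passed the low-count filter of the test.

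Kcna5, the Kv1 pore of a fast-opening delayed rectifier, was the only member called between IR edit hearts and the other hearts with IR. Its gene lies on mouse chromosome 6 (mm10, 126532551 to 126535412, minus strand). Its level was 19.0, 20.6, 21.3 and 24.5 CPM in the 4 IR edit hearts, against 9.99, 11.2 and 7.83 CPM in the IR virus hearts, 8.18, 8.23 and 13.6 CPM in the IR hearts, and 19.0, 11.8 and 11.7 CPM in the Sham hearts. All 4 IR edit hearts were above every IR virus and IR heart, and 1 Sham heart lay just below the lowest IR edit heart. By edgeR's quasi-likelihood test with Benjamini-Hochberg adjustment over 15690 genes, Kcna5 rose in IR edit against IR virus hearts (log2 fold change 1.14 ± 0.20 (SE), adjusted p = 0.0096) and against IR hearts (1.09 ± 0.20, adjusted p = 0.0127). Against Sham hearts the difference was 0.59 ± 0.20 with an adjusted p of 0.0773. In IR virus and IR hearts it was lower than in Sham hearts without passing the test (log2 fold changes −0.55 and −0.51, adjusted p = 0.253 and 0.557).

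Kcna5 was the only one of the 50 members called in IR edit against IR virus hearts, where 2.02% of all genes tested were called, and the only one in IR edit against IR hearts, where the share of all genes was 1.42%. One call in 50 is therefore near the share of all genes in both. In the fits of the 2 groups alone both calls held (adjusted p = 0.00275 and 0.0167). In the fit of all hearts, the call against IR virus hearts held in 12 of the 13 fits that left out 1 library and was lost without IR virus replicate 3 (adjusted p = 0.0619). The call against IR hearts held in 11 of 13 and was lost when either IR replicate 1 or IR replicate 2 was left out (adjusted p up to 0.103). Without IR edit replicate 1, 3 members were called in each of these comparisons, where 3.06% and 1.93% of all genes were called, and without IR edit replicate 3, 2 and 3 members, where the shares of all genes were 2.77% and 3.13%. Without IR edit replicates 2 and 4, the fold changes were 1.05 (adjusted p = 0.0619) and 1.01 (adjusted p = 0.0852).

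Kcna5 lies in a cluster of Kv1 pore genes with Kcna1 at a distance of 105 kb and Kcna6 at 173 kb. Kcna1 had log2 fold changes of 0.85 against IR virus and 0.86 against IR hearts, and Kcna6 of −0.09 and 0.37, and neither was called. Both are named for their position, after their values were seen. The 250 bases before the RefSeq start of Kcna5 are printed because this is the one member called between IR edit hearts and the other hearts with IR. They cover chr6:126535556-126535805 on the minus strand of GRCm38.p6, 53.2% of them are G or C, and the capitals mark CACCC, searched on both strands as CACCC or GGGTG, the letters that Krüppel-like factors such as Klf15 are known to bind.
Kcna5: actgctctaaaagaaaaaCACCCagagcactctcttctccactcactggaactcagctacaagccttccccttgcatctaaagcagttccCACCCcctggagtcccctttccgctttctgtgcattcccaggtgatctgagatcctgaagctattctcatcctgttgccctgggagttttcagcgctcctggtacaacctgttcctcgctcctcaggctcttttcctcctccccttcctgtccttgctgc
The same letters are in 52.0% of 32851 RefSeq mouse promoters of this length, so their presence is ordinary. The letters CACGTG, TTATGNAA and TGACG, searched on both strands, were not found in this window.

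Beside Kcna5, daily clock genes also differed between the same hearts. Of 10 clock genes tested, 8 were called in IR edit against IR virus hearts and 7 in IR edit against IR hearts, among them Arntl (2.51 on the log2 scale, higher in IR edit than in IR virus hearts) and Dbp (−2.82, lower). The 10 genes summed to 290 to 368 CPM in IR edit hearts, 541 to 634 CPM in IR virus hearts, 540 to 558 CPM in IR hearts and 522 to 684 CPM in Sham hearts, with no overlap between IR edit and any other group. This sum joins genes that rose and genes that fell. Single clock genes also varied within other groups. Arntl had 0.755, 6.24 and 8.33 CPM in Sham hearts and 6.01, 1.43 and 6.27 CPM in IR virus hearts. Dbp varied less in Sham hearts, at 28.7, 35.1 and 25.3 CPM. The time of day of tissue collection is not in the labels, and the part of the clock genes in the Kcna5 result was not tested. The 5 atrial markers (Nppa, Sln, Myl7, Myl4 and Bmp10) summed to 123.4, 370, 71.6 and 436 CPM in IR edit hearts, against 213, 228 and 208 CPM in IR virus hearts and 148 to 231 CPM in IR hearts, and 0 of the 5 were called in either comparison. Nppa, which heart muscle cells of the ventricle also make under stress, held most of this sum, with 98.9, 304, 55.9 and 422 CPM in IR edit hearts, against 146 to 154 CPM in IR virus hearts. The other 4 genes summed to 24.5, 65.5, 15.7 and 13.6 CPM in IR edit hearts, against 59.1, 82.2 and 55.8 CPM in IR virus hearts. The part of atrial RNA in the Kcna5 result was not tested.

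Kcnj8, Kcnip2 and Kcnj2 had the next smallest p-values in these comparisons and did not pass. Kcnj8 had log2 fold changes of −0.41 ± 0.10 against IR virus (adjusted p = 0.0551) and −0.43 ± 0.10 against IR hearts (adjusted p = 0.0511). Kcnip2 had −0.55 ± 0.17 against IR virus hearts (adjusted p = 0.139), and Kcnj2 had −0.60 against IR hearts (adjusted p = 0.0643). At an unadjusted p under 0.05 there were 14 members in IR edit against IR virus hearts and 13 in IR edit against IR hearts, against 15.2% and 14.5% of all genes. The groups did not overlap for 9 members in each comparison, against 13.9% and 12.8% of all genes. The median log2 fold change of the 50 members was −0.09 and 0.05, beside −0.01 and 0.00 for all genes.

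In IR edit against Sham hearts 8 members were called, 7 lower and 1 higher, where 8.01% of all genes tested were called (3.4% lower and 4.61% higher). The 7 that fell were Kcnd2, Kcnip2, Kcnv2, Kcnh7, Kcnj2, Kcnj3 and Kcnj8, and Kcnj14 rose. An edgeR fit on these 7 libraries alone called 0 of the 8, where 1.62% of all genes were called, and 18 members had an unadjusted p under 0.05 in the fit of all 13 libraries, against 23.6% of all genes. The fit of all 13 hearts shares 1 estimate of the spread, while IR edit hearts had the largest SD of the 4 groups for each of these genes but Kcnh7. The IR edit group differs from Sham by IR and by the injection, so this comparison does not separate them. Daily clock genes differed here too, with 2 of 10 called higher and 6 called lower in IR edit than in Sham hearts. The part of the clock genes in these Kcn results was not tested. Fibroblast markers also differed between these hearts, with 3 of 6 called higher in IR edit hearts (Pdgfra, Col1a1 and Col1a2). The 6 summed to 934, 1058, 833 and 1232 CPM in IR edit hearts, against 797 to 818 CPM in Sham hearts, and were highest in IR edit replicates 2 and 4. In the same replicates the sum of the 7 heart muscle cell markers was lowest, at 36601 and 34568 CPM. It was 42293 and 44145 CPM in IR edit replicates 1 and 3 and 39073 to 47257 CPM in Sham hearts. Myh6, the largest part, had 12159 and 11550 CPM in IR edit replicates 2 and 4, against 17128 and 16302 CPM in replicates 1 and 3. Actc1 went the other way, at 7134 and 7637 CPM against 6646 and 6214 CPM. The rest of the 7 were lower in replicates 2 and 4, and none of the 7 was called. The part of these cell types in the Kcn results was not tested.

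Kcnd2 fell the most firmly. It had 27.5, 19.1, 35.9 and 19.5 CPM in IR edit hearts, against 41.7, 45.8 and 45.2 CPM in Sham hearts, while IR virus hearts had 27.8, 29.6 and 29.3 CPM and IR hearts 30.1, 30.2 and 29.9 CPM. Every heart with IR, injected or not, was below every Sham heart. In the single comparisons with Sham hearts, groups did not overlap for 16.4% (IR edit), 21.3% (IR virus) and 14.4% (IR) of all genes. The share of all genes apart from Sham in all of these at once was not counted, here or for the members below. The log2 fold change in IR edit against Sham hearts was −0.80 ± 0.16 (SE), with an adjusted p of 0.00902 by edgeR's quasi-likelihood test. It passed in all 13 fits that left out 1 library and, without IR edit replicates 2 and 4, was −0.49 ± 0.11 with an adjusted p of 0.0421. In the fit of IR edit and Sham hearts alone it was −0.80 with an adjusted p of 0.0679. The difference of IR edit from IR virus hearts in Kcnd2 did not pass (−0.18 ± 0.16, adjusted p = 0.625).

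Kcnip2, the partner that brings Kv4 pores to the surface, had 102, 63.2, 92.7 and 50.2 CPM in IR edit hearts, against 133, 119 and 114 CPM in Sham hearts, 122.7, 110 and 105 CPM in IR virus hearts and 108, 102 and 117 CPM in IR hearts. All IR edit hearts were below all Sham hearts, with replicates 2 and 4 lowest, while IR virus and IR hearts overlapped Sham hearts. It fell by 0.66 ± 0.17 on the log2 scale in IR edit against Sham hearts (adjusted p = 0.0313), and without IR edit replicates 2 and 4 the change was −0.33 (adjusted p = 0.174). Kcna4, the pore of a slower transient outward current, named after its values were seen, had 3.45, 5.56, 5.64 and 6.19 CPM in IR edit hearts and 0.72, 3.75 and 2.93 CPM in Sham hearts, a log2 fold change of 1.10 that did not pass (adjusted p = 0.100).

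The promoters of Kcnd2 and Kcnip2 are shown as a pore and a partner of one current, both lower in IR edit than in Sham hearts. That of Kcnj2 is shown as the only E-box among the called members whose promoter was at hand. Kcnd2 is at chr6:21215096-21215345 on the plus strand, Kcnip2 at chr19:45816064-45816313 on the minus strand and Kcnj2 at chr11:111065914-111066163 on the plus strand of GRCm38.p6, each as the 250 bases before the RefSeq start, 5′ to 3′. The capitals mark CACCC or its reverse complement GGGTG and, in Kcnj2, also CACGTG, the E-box that clock factors are known to bind.
Kcnd2: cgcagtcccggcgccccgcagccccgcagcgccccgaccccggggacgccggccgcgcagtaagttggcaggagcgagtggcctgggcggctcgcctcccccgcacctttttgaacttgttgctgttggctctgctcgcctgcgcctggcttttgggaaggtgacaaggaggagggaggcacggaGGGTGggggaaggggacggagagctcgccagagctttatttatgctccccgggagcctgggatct
Kcnip2: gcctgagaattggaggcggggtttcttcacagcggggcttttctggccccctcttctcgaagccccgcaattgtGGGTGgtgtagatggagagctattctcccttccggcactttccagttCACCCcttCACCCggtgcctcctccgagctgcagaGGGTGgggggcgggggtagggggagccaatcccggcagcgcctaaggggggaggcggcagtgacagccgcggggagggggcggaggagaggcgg
Kcnj2: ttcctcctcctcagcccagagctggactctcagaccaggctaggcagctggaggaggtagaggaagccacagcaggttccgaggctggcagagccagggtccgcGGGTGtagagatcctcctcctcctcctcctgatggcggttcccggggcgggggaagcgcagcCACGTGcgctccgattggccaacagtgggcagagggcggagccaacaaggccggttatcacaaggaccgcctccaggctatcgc
The E-box of Kcnj2 lies 84 bases before the start, and CACGTG is in 6.02% of all 32851 promoters of this length. G and C made up 68.8%, 66.8% and 65.6% of these windows for Kcnd2, Kcnip2 and Kcnj2, against a median of 52.4% over all promoters. Of the 10 members called in any test, 8 had a promoter in the table (35 of all 50 members had one). CACCC was found in 7 of the 8 and not in Kcnj3 (52.0% of all promoters). Its share among promoters equally rich in G and C was not counted. TGACG, the cAMP response element core, was found only in Kcnj8 (17.8% of all promoters). TTATGNAA, the D-box of Dbp and its relatives, was in none (3.07% of all promoters).

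The other Kv members that fell against Sham hearts were lowly expressed. Kcnv2, a silent Kv subunit that is best known from photoreceptors, had 7.53, 2.6, 9.47 and 1.62 CPM in IR edit hearts, against 21.8, 14.9 and 16.3 CPM in Sham hearts, 7.80, 9.24 and 6.06 CPM in IR virus hearts and 6.71, 6.61 and 12.3 CPM in IR hearts. As for Kcnd2, every heart with IR was below every Sham heart. Its log2 fold change in IR edit against Sham hearts was −1.75 ± 0.40 (adjusted p = 0.0178), and −1.06 (adjusted p = 0.0682) without IR edit replicates 2 and 4. Kcnh7, a pore of the ERG family that is best known from neurons, had 2.15, 2.55, 2.28 and 2.1 CPM in IR edit hearts, against 3.40, 3.88 and 3.50 CPM in Sham hearts. IR virus hearts had 2.83, 2.69 and 2.86 CPM and IR hearts 2.21, 3.07 and 2.34 CPM, so every heart with IR was again below every Sham heart. Kcnh7 fell by 0.66 ± 0.15 on the log2 scale (adjusted p = 0.0154). Without IR edit replicates 2 and 4 the change was −0.70 (adjusted p = 0.11).

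Of the 8 inward rectifiers, 3 fell and 1 rose in IR edit against Sham hearts. Kcnj2 had 78.9, 65.9, 69.9 and 42.6 CPM in IR edit hearts, against 89.0, 96.4 and 109 CPM in Sham hearts, and 77.4 to 103 CPM in the 6 IR virus and IR hearts. IR edit hearts were below all Sham hearts, and 1 of them was within the range of the other IR hearts. Kcnj2 fell by 0.61 ± 0.15 on the log2 scale (adjusted p = 0.0250), against −0.40 (adjusted p = 0.141) without IR edit replicates 2 and 4. Kcnj3 had 94.7, 80.4, 137 and 66.8 CPM in IR edit hearts, against 138, 150 and 155 CPM in Sham hearts, 101, 115 and 111 CPM in IR virus hearts and 101, 107 and 121 CPM in IR hearts. Every heart with IR was below the Sham hearts, though 1 IR edit heart lay just below the lowest of them. Kcnj3 fell by 0.64 ± 0.17 (adjusted p = 0.0297), against −0.35 (adjusted p = 0.299) without IR edit replicates 2 and 4. Kcnj5, its partner subunit, had a log2 fold change of −0.02. Since Kcnj3 is known to be richer in atria, atrial markers are given here too. All 5 summed to 71.6 to 436 CPM in IR edit hearts and 18.9 to 79.3 CPM in Sham hearts, and the 4 without Nppa to 13.6 to 65.5 CPM in IR edit hearts and 5.63 to 55.6 CPM in Sham hearts. Nppa was the 1 of the 5 called, higher in IR edit hearts at 55.9 to 422 CPM, against 13.2 to 26.5 CPM in Sham hearts. Their part in the Kcnj3 result was not tested.

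Kcnj8 had 22.1, 18.01, 21.1 and 16.2 CPM in IR edit hearts, against 23.7, 25.1 and 25.9 CPM in Sham hearts, 27.7, 23.1 and 26.1 CPM in IR virus hearts and 27.1, 24.9 and 26.2 CPM in IR hearts. All 4 IR edit hearts were below the other 9. Kcnj8 fell by 0.36 ± 0.10 on the log2 scale in IR edit against Sham hearts (adjusted p = 0.0425), against −0.20 (adjusted p = 0.468) without IR edit replicates 2 and 4. Pericyte and smooth muscle markers, cells in which Kcnj8 is known to be high, summed to 897 to 1009 CPM in IR edit hearts, against 1030 to 1113 CPM in IR virus, 1092 to 1210 CPM in IR and 970 to 1148 CPM in Sham hearts. The sum of every IR edit heart was thus also below those of all IR virus and IR hearts, while it overlapped Sham hearts. Rgs5 held most of this sum, at 690 to 810 CPM in IR edit and 798 to 887 CPM in IR virus hearts, which overlap. It had 879 to 986 CPM in IR and 756 to 965 CPM in Sham hearts. Of the 9 markers, 2 had a positive log2 fold change in IR edit against IR virus hearts, and 4 against IR hearts. None of the 9 was called in any of the 6 comparisons by edgeR, and their part in the Kcnj8 result was not tested. Kcnj11, the heart muscle cell counterpart, had a log2 fold change of 0.03. Kcnj14, a pore of the Kir2 family, was low throughout, at 0.45, 1.30, 0.78 and 2.02 CPM in IR edit hearts against 0.19, 0.43 and 0.33 CPM in Sham hearts. Its rise of 1.85 ± 0.47 (adjusted p = 0.0282) became 0.91 (adjusted p = 0.454) without IR edit replicates 2 and 4.

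**Figure D2:**
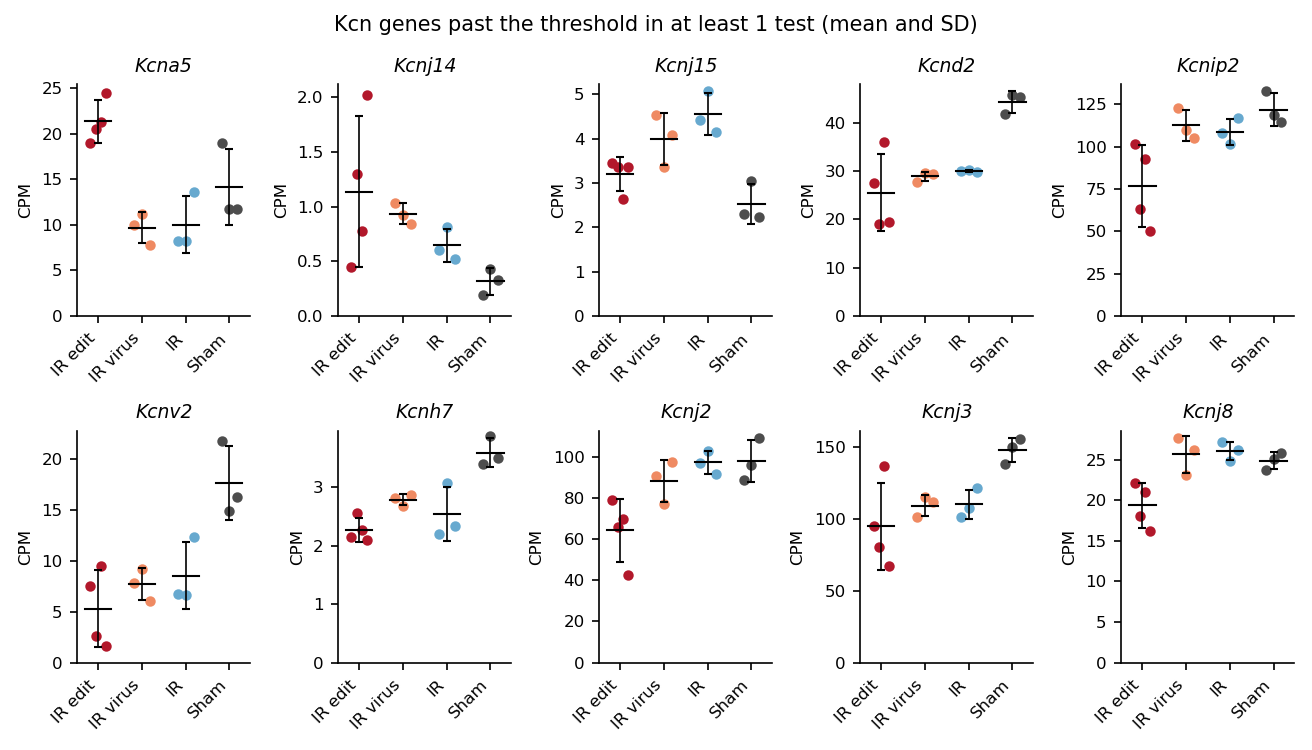
CPM in each heart for the 10 members called in any comparison or in the test across the 4 groups, 1 panel per gene, with groups from left to right IR edit, IR virus, IR and Sham; points are single hearts and the bars give the mean and SD. Kcna5 shows the 4 IR edit hearts above all IR virus and IR hearts, Kcnd2, Kcnv2, Kcnh7 and Kcnj3 show every heart with IR below the Sham hearts, and Kcnip2, Kcnj2 and Kcnj8 show the IR edit hearts below the Sham hearts.

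With replicates 2 and 4 of the IR edit group left out, 1 member, Kcnd2, was called against Sham hearts in place of 8, and 0.994% of all genes in place of 8.01%. The direction of all 8 was kept. Left out alone, IR edit replicate 2 gave 2 calls, IR edit replicate 4 gave 4, Sham replicates 2 and 3 gave 3 each, and each of the other libraries gave 6 to 10. The share of all genes called was 3.06% and 3.52% without IR edit replicates 2 and 4 in turn, 5.02% and 4.16% without Sham replicates 2 and 3 in turn, and 4.03% to 15% without each of the others. Kcnh7 was lost without Sham replicate 2 (adjusted p = 0.0534), and Kcnv2 without IR edit replicate 2 or Sham replicate 1 (adjusted p up to 0.0622). Kcnj2 was lost without IR edit replicate 2 or Sham replicate 2 or 3 (up to 0.0914), and Kcnj14 without IR edit replicate 2 or 4 or Sham replicate 1 or 3 (up to 0.108). Kcnj3 and Kcnip2 were lost without IR edit replicate 2 or 4 or any 1 Sham heart (up to 0.0990 and 0.103). Kcnj8 held in 4 of the 13 fits, those without IR edit replicate 1 or 3 or IR virus replicate 1 or 2, and had an adjusted p of up to 0.124 in the others. The median log2 fold change of the 50 members was −0.04, beside 0.00 for all genes, with 22 members positive and 28 negative. The groups did not overlap for 13 members, 10 lower and 3 higher in IR edit hearts, against 8.18% and 8.22% of all genes (16.4% in either direction). By class, 1 of 4 transient outward pores, 1 of 3 Kv4 partners, 1 of 2 silent subunits, 1 of 5 Kv7 and EAG family pores and 4 of 8 inward rectifiers were called. None of 9 other Kv pores, 4 Kv beta and Kcne subunits, 5 tandem-pore channels, 7 calcium- and sodium-activated channels and 3 other symbols was called. The 42 members not called had log2 fold changes from −1.05 to 1.10. The lowest was Kcnt1, a sodium-activated pore (adjusted p = 0.0911), and the highest Kcna4.

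**Figure D3:**
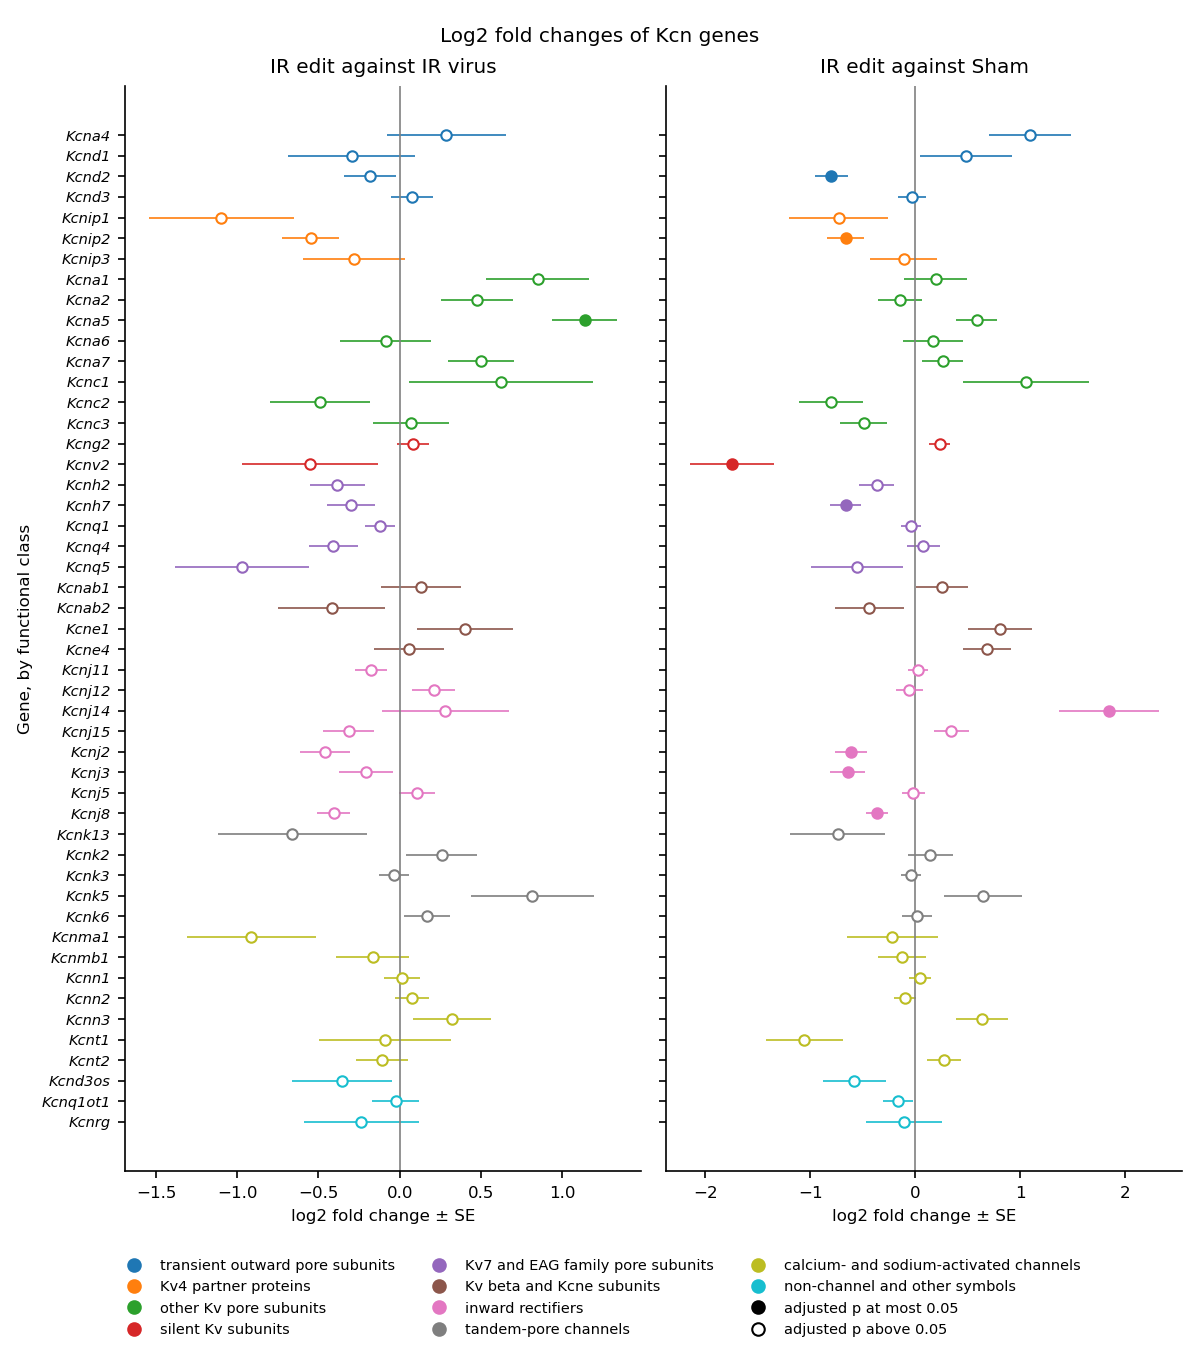
Log2 fold change with SE of 49 of the 50 members, grouped and coloured by functional class, in IR edit against IR virus hearts (left) and in IR edit against Sham hearts (right); filled points passed an adjusted p of 0.05. Kcna5 is the 1 filled point on the left at 1.14, and the 8 filled points on the right are 7 negative ones, down to Kcnv2 at −1.75, and Kcnj14 at 1.85.

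In both groups with IR but no editor, Kcnd2, Kcnv2, Kcnh7, Kcnj3, Kcnj5 and Kcnt1 were lower in each heart than in every Sham heart, and Kcnj15, Kcnj14 and Kcne4 were higher. For Kcnj5 the margin was small, with 95.30 CPM in the highest of these hearts and 95.37 CPM in the lowest Sham heart. The share of all genes that kept apart from Sham in both groups was not counted, so the number of these members cannot be set against it. None of these members passed the test on all 13 hearts, and some passed in other fits. In IR virus against Sham hearts edgeR, on all 13 hearts, called 0 of 50 members, where 0.0127% of all genes (2 genes) were called, and 13 members had an unadjusted p under 0.05, against 15.4% of all genes. DESeq2 called 1, Kcnd2, and 1.29% of all genes. In IR against Sham hearts edgeR called 0 of 50, again with 0.0127% of all genes, 11 members had an unadjusted p under 0.05, against 8.33% of all genes, and DESeq2 called 1, Kcnj15, and 0.363% of all genes. Without IR edit replicates 2 and 4, edgeR called 3 members in IR virus against Sham hearts (Kcnd2, Kcnv2 and Kcnj14) and 3 in IR against Sham hearts (Kcnd2, Kcnv2 and Kcnj15), where 1.62% and 0.906% of all genes were called. Without IR edit replicate 3 it called 1, Kcnd2, in IR virus against Sham hearts, where 0.831% of all genes were called. On the 2 groups alone it called 3 (Kcnd2, Kcnv2 and Kcnj3) and 1 (Kcnd2), where 1.35% and 0.769% of all genes were called. The groups did not overlap for 14 members in IR virus against Sham hearts and for 10 in IR against Sham hearts, against 21.3% and 14.4% of all genes. The median log2 fold changes were −0.01 and −0.10, with 24 and 16 of 50 members positive, beside 0.01 and 0.00 for all genes. All 3 comparisons with Sham use the same 3 Sham hearts, so their values are not independent.

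Kcnd2, whose values are given above, had log2 fold changes of −0.61 ± 0.17 in IR virus against Sham hearts (adjusted p = 0.156) and −0.56 ± 0.17 in IR against Sham hearts (adjusted p = 0.392). Fits on the 6 libraries of each comparison gave −0.62 ± 0.08 (adjusted p = 0.0067) and −0.56 ± 0.08 (adjusted p = 0.0172), and leaving out IR edit replicates 2 and 4 gave −0.61 ± 0.09 (adjusted p = 0.00544) and −0.56 ± 0.09 (adjusted p = 0.0131). The SD of Kcnd2 was 7.94 CPM in IR edit hearts, against 0.963 in IR virus, 0.167 in IR and 2.21 in Sham hearts. Averaging IR virus and IR hearts against Sham, an alternative chosen after the values were seen, gave −0.59 ± 0.14 (adjusted p = 0.0987).

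Kcnj15, an inward rectifier of the Kir4 family, was the member with the smallest p in IR against Sham hearts. It had 4.54, 3.36 and 4.08 CPM in IR virus hearts and 4.42, 5.07 and 4.16 CPM in IR hearts, against 2.3, 3.06 and 2.22 CPM in Sham hearts, with 3.45, 3.36, 2.64 and 3.36 CPM in IR edit hearts. All IR virus and IR hearts were above the Sham hearts, while IR edit hearts overlapped Sham and IR virus hearts. The log2 fold changes were 0.85 ± 0.17 in IR against Sham hearts (adjusted p = 0.188) and 0.66 ± 0.17 in IR virus against Sham hearts (adjusted p = 0.15). IR edit against Sham hearts gave 0.35 (adjusted p = 0.224). Kcnv2 had −1.20 (adjusted p = 0.229) in IR virus and −1.05 (adjusted p = 0.534) in IR against Sham hearts. Kcnj3 had −0.44 (adjusted p = 0.271) and −0.43 (adjusted p = 0.552), and Kcnj14 had 1.57 (adjusted p = 0.198) in IR virus against Sham hearts. Kcne4, an accessory subunit known to damp Kv1 and Kv7 currents, had 0.77 ± 0.24 in IR against Sham hearts (adjusted p = 0.403). Kcnt1 had −0.97 in IR virus and −1.11 in IR against Sham hearts, on means of 0.508, 0.46 and 0.996 CPM in IR virus, IR and Sham hearts.

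IR virus and IR hearts differ by the control virus. Between them edgeR called 0 of 50 members, as it called 0% of all genes, 1 member had an unadjusted p under 0.05, against 3.84% of all genes, and DESeq2 called 0. The 3 members with the smallest p were Kcnip1, a low Kv4 partner, with 1.11 ± 0.48, Kcng2 with 0.23, and Kcnn2, a calcium-activated pore, with −0.24, each with an adjusted p of 0.962. The groups did not overlap for 7 members, against 12% of all genes. The log2 fold changes of all 50 ran from −0.24 to 1.11.

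The test across the 4 groups asks in 1 step whether the group means are equal. It called 3 members, Kcna5 (adjusted p = 0.00892), Kcnd2 (adjusted p = 0.0382) and Kcnj15 (adjusted p = 0.0382), where 3.36% of all genes were called, and 17 members had an unadjusted p under 0.05, against 19.6% of all genes. The call of Kcna5 held in all 13 fits that left out 1 library, that of Kcnj15 in 5 and that of Kcnd2 in 2. Kcnd2 held without IR edit replicate 1 or 3, and Kcnj15 without either of these or without IR virus replicate 2, IR replicate 3 or Sham replicate 2, while in the other fits their adjusted p went up to 0.115 and 0.102. Without IR edit replicate 1 the test called 7 members, without IR edit replicate 3 it called 6, and without any 1 of the other libraries 1 or 2, where 3.82%, 8.51% and 1.26% to 3.41% of all genes were called. The other class leads by this test were Kcnh7, Kcnv2, Kcnip2, Kcne4, Kcnt1, Kcnk5, an alkaline-activated tandem-pore channel, and Kcnd3os, and none passed. Kcnk5 had 0.695 ± 0.327 CPM in IR edit hearts (SD, n = 4), against 0.386 ± 0.108 in IR virus, 0.374 ± 0.052 in IR and 0.427 ± 0.141 in Sham hearts (SD, n = 3 each). Among the most abundant members, Kcnk3, Kcnj11, Kcnj5, Kcng2, Kcnh2 and Kcnj12 were called in no comparison. Kcnk3 averaged 150 ± 10.7 CPM in IR edit, 154 ± 13.5 in IR virus, 145 ± 19.9 in IR and 154 ± 8.43 in Sham hearts.

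Genes that act on these channels were taken from a list of 18 partners and regulators, of which 14 could be tested. Abcc9, the sulfonylurea receptor that joins Kcnj8 and Kcnj11 and lies 16.2 kb from Kcnj8 on chromosome 6, had 454, 325, 481 and 279 CPM in IR edit hearts, against 672, 648 and 683 CPM in Sham hearts, with 537 to 555 CPM in IR virus and 530 to 571 CPM in IR hearts. All IR edit hearts were below all IR virus and IR hearts, and these were below all Sham hearts. Groups did not overlap for 13.9% and 12.8% of all genes in IR edit against IR virus and IR hearts. In IR virus and IR against Sham hearts the shares were 21.3% and 14.4%. By edgeR, Abcc9 was called in none of these 4 comparisons. Abcc9 fell by 0.80 ± 0.14 on the log2 scale in IR edit against Sham hearts (adjusted p = 0.0049), and without IR edit replicates 2 and 4 still passed at −0.51 (adjusted p = 0.0032), while the fit of the 2 groups alone gave an adjusted p of 0.0504. Klf15 is a transcription factor known to drive Kcnip2 in mouse heart with a daily rhythm. It had 27.2, 18.7, 27.3 and 18.5 CPM in IR edit hearts and 38.4, 28.0 and 34.7 CPM in Sham hearts. IR virus hearts had 24.2 to 26.7 CPM and IR hearts 23.9 to 28.2 CPM. Only IR edit replicates 2 and 4 were below all of these. Klf15 fell by 0.56 ± 0.14 in IR edit against Sham hearts (adjusted p = 0.0288), against −0.31 (adjusted p = 0.348) without IR edit replicates 2 and 4. The call of Klf15 was also lost without IR edit replicate 2 or 4 or Sham replicate 1 or 3 (adjusted p up to 0.113). Sgk1, a kinase that raises the surface level of several potassium channels, had 68.8, 57.6, 74.2 and 65.1 CPM in IR edit hearts, against 34.3, 38.4 and 29.8 CPM in IR virus hearts and 30.8, 33.3 and 47.7 CPM in IR hearts, while Sham hearts had 63.9, 38.3 and 35.3 CPM. All IR edit hearts were above all IR virus and IR hearts, as for Kcna5. For Sgk1, 1 Sham heart lay among the IR edit hearts. It rose by 0.96 ± 0.19 against IR virus hearts (adjusted p = 0.0172) and by 0.83 ± 0.19 against IR hearts (adjusted p = 0.0422). The call against IR virus hearts was lost without IR virus replicate 1 or 3 (adjusted p up to 0.0921). The call against IR hearts held without IR edit replicate 3, IR replicate 3 or a Sham heart, was lost without any 1 of the other 8 libraries (adjusted p up to 0.215), and without IR edit replicates 2 and 4 was 0.94 (adjusted p = 0.0852).

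No other partner passed in any comparison. In IR virus and IR against Sham hearts and in IR virus against IR hearts 0 of the 14 were called, the smallest p being that of Irx5, a repressor of Kcnd2 in the mouse ventricle (0.39, adjusted p = 0.182), Klf15 (−0.40, adjusted p = 0.518) and Abcc8 (0.15, adjusted p = 0.962). Of 12 other genes of potassium transport, the sodium pump subunits and the potassium-chloride cotransporters among them, 11 could be tested and 0 were called in any of the 6 comparisons. In IR edit against IR hearts and against Sham hearts the smallest p was that of Atp1b3, a sodium pump beta subunit, with −0.14 (adjusted p = 0.380) against IR hearts and −0.13 (adjusted p = 0.252) against Sham hearts.

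**Figure D4:**
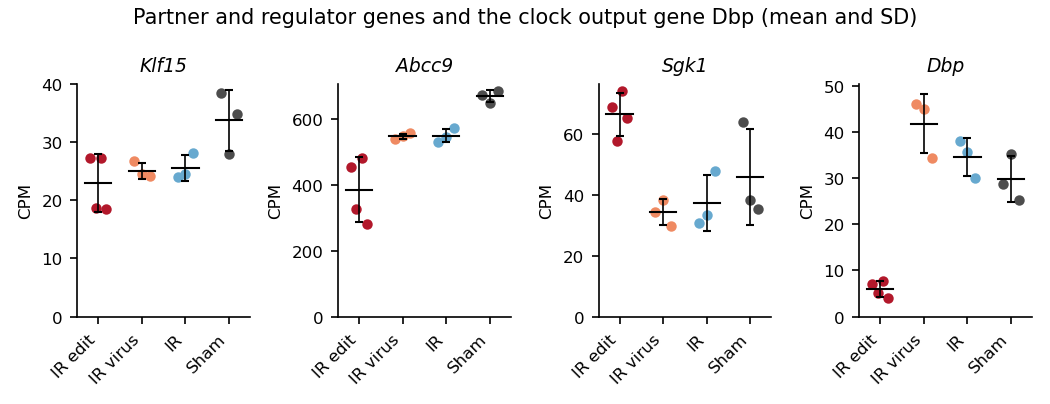
CPM in each heart of the 3 partner genes called in any comparison, Klf15, Abcc9 and Sgk1, and of the clock gene Dbp, with groups from left to right IR edit, IR virus, IR and Sham; points are single hearts and the bars give the mean and SD. Abcc9 lies at 279 to 481 CPM in IR edit hearts and 648 to 683 CPM in Sham hearts, Sgk1 at 57.6 to 74.2 CPM in IR edit hearts against 29.8 to 38.4 CPM in IR virus hearts, and Dbp at 4.01 to 7.66 CPM in IR edit hearts against 25.3 to 46.1 CPM in the other 9.

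Several members lie next to or across each other. The gene bodies of Kcnq1 and Kcnq1ot1, Kcnd3 and Kcnd3os, and Kcnip1 and Kcnmb1 overlap on opposite strands, and whether counting used strand is not given in the sources used here, so the counts of these 6 genes are uncertain. None of them was called. Kcnj11 lies 3.76 kb from Abcc8 on chromosome 7, and neither was called in any comparison.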

How the data were processed

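RNA of 13 whole mouse hearts in 4 groups was sequenced from libraries of mRNA (KAPA mRNA HyperPrep, per the labels' protocols). The authors deposited raw read counts per gene symbol. The submitters' processing notes name HISAT2 2.1.0 and mm10, featureCounts 1.6.2, Trimmomatic 0.39 and FastQC 0.11.8. The annotation, and whether counting used strand, is not given in the sources used here. The members, the gene lists and the comparisons were chosen with earlier results of these data known.

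Genes were kept with filterByExpr of edgeR 4.0.16 (R 4.3.3), which left 15690. Counts were scaled by TMM and fitted with edgeR's quasi-likelihood test, 1 mean per group, over all 13 libraries (9 residual degrees of freedom). P-values were adjusted by Benjamini-Hochberg over all 15690 genes, and an adjusted p of at most 0.05 was called. Standard errors (SE) were obtained from the fold change and F (size of the log2 value over √F). CPM are TMM-scaled. RPKM here are these CPM per kilobase of joined exons in GENCODE M21, computed for the comparison of levels only. Coordinates are mm10, and promoters come from RefSeq on GRCm38.p6.

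Members with values in the text are those called in any test, the 3 with the smallest p per comparison, the 12 with the highest RPKM and the one with the smallest p across groups in each functional class. A member and a transport gene that this rule takes in are not reported here. The steps were tested on simulated counts in which each gene had the same spread in all 4 groups. That test does not cover the larger spread that IR edit hearts had for most members called against Sham hearts. Alternatives were DESeq2 1.42.0 and its size factors, other low-count filters, the 2 groups alone, the replicate number as a block, and fits without 1 library or without IR edit replicates 2 and 4. The mean of IR virus and IR against Sham was added after the data were seen. Depth was 20634820 to 27265276 counts per library. Hearts were treated as unpaired in the fit reported. The labels do not say whether the title numbers mark a shared animal, batch or day, and same-numbered hearts did not deviate together in every pair.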

Additional observations from a re-analysis of the deposited data

Results flagged for a closer look

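With 50 members in the 4 IR edit hearts, 3 had 1 heart far from the others, in each case IR edit replicate 3. Chance alone would set 1 heart apart in about 1 of 20 such groups of values, so 3 of 50 is near the share that chance would give. Kcnab2, a Kv beta subunit, had 0.259 CPM in that heart, from 5 reads, against 0.896 to 1.0 CPM in the other 3 IR edit hearts. Kcna6, a Kv1 pore, had 1.6 CPM there, against 0.931 to 1.0 CPM. Kcnj15 had 2.64 CPM there, against 3.36 to 3.45 CPM.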

How the results depend on the processing

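Counts of called members are given for IR edit hearts against IR virus, against IR and against Sham hearts, for IR virus and for IR against Sham hearts and for the test across the 4 groups, in that order, and were 1, 1, 8, 0, 0 and 3 in the fit reported, with 2.02%, 1.42%, 8.01%, 0.0127%, 0.0127% and 3.36% of all genes called. With DESeq2's size factors, or with 10 reads in 3 libraries as the filter, they were the same. Without a filter they were 7, 8, 15, 8, 7 and 16 (3.18%, 3.19%, 6.9%, 2.7%, 1.87% and 7.17% of all genes). With the DESeq2 test they were 2, 3, 9, 1, 1 and 8 (3.3%, 2.83%, 10.3%, 1.29%, 0.363% and 8.19%). In fits of only the 2 groups compared they were 1, 1, 0, 3 and 1 (1.44%, 1.11%, 1.62%, 1.35% and 0.769%). With the replicate number as a block they were 0, 0, 6, 0, 0 and 0 (1.01%, 0.778%, 3.76%, 1.11%, 0.0319% and 1.72%). Without IR edit replicates 2 and 4 they were 0, 0, 1, 3, 3 and 2 (0.566%, 0.491%, 0.994%, 1.62%, 0.906% and 1.76%). Leaving out 1 library gave 0 to 3, 0 to 3, 2 to 10, 0 to 1, 0 to 0 and 1 to 7 (0.603% to 3.06%, 0.37% to 3.13%, 3.06% to 15%, 0% to 0.831%, 0% to 0.141% and 1.26% to 8.51%). IR virus against IR gave 0 in all of these. The cause of these moves was not tested. Across all alternatives, 33 fold changes of single genes were followed. They were those called, those with the 3 smallest p of a comparison, and some chosen by hand. Of their refits, 562 kept their direction and their side of the threshold, 53 lost a call, 44 gained one, and 0 changed sign. Most were picked for small p-values in the same hearts, so changes of sign were unlikely from the start. These counts do not describe the other fold changes.

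The labels do not say whether a replicate number marks a shared day or batch. Deviations of same-numbered hearts from their group means correlated with a mean of 0.0251 over 18 pairs, from −0.13 to 0.221. Over 45 pairs with different numbers the mean was −0.0099, from −0.194 to 0.211. With 3 or 4 hearts a group, these values cannot settle whether the numbers mark pairs. With the block, Kcna5 had an adjusted p of 0.0502 against IR virus and 0.0760 against IR hearts. Depth limits 13 members that averaged below 1 CPM, and with 3 or 4 hearts a group, differences of the size of Kcnj8 are called or lost with 1 library.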
